A study of Caenorhabditis elegans with 2 samples.

Results

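Chromosome II of Caenorhabditis elegans carried 653 of the 3782 MRG-1 binding sites (peaks) in the authors' list, or 17.3% of it (95% exact Clopper-Pearson interval 16.1 to 18.5%). Every peak whose chromosome field reads II was kept, whatever its width or score. The list came from chromatin immunoprecipitation followed by sequencing (ChIP-seq), in coordinates of WormBase build WS220. The other autosomes held 909 peaks (I), 796 (III), 655 (IV) and 574 (V), and X was not used in the comparisons. The study held 1 ChIP library and 1 input DNA library, both from whole adults of the strain fem-2(b245). These were hermaphrodites labelled as young adults that contain a germline, cultured at 20 °C, though the protocol of their growth calls them gravid. fem-2 acts in sex determination, and all animals of both libraries carried the b245 allele, so no wild-type animals stand beside them. The precipitating antibody, a purified polyclonal one from rabbit, was raised against a peptide of MRG-1. Germline and somatic nuclei were precipitated together, so binding in more cells and stronger binding per cell cannot be told apart.

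MRG-1 is a chromodomain protein related to human MRG15, a family that recognises histone H3 methylated at lysine 36 and works in chromatin-modifying complexes. In worms it is needed for germ cells to develop and survive. Worm chromosomes are holocentric, meaning that spindle fibres attach along their whole length, so an "arm" here is an outer part of the chromosome and not a side of a centromere. Autosome arms are known to recombine more often and to hold more repeats than autosome centres.

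All values below describe 1 list from 1 library. Peaks are not replicates, so no difference was tested between samples. Intervals are 95% exact intervals of counts, cover counting error only, and are too narrow because peaks cluster. Read depth is unknown from the list. Length was measured from the chromosome start to the end of the last peak, which gave 15.2 Mb for II.

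Peaks covered 3.22 Mb of chromosome II, or 21.1% of its length, at 42.8 peaks per Mb. In its totals II stood in the middle of the autosomes. The other 4 together were 20.9% covered at 43.7 peaks per Mb, with single chromosomes from 11.5% (V) to 29.5% (I). The peak density of II was 0.980 times that of the others pooled (interval 0.899 to 1.07), and its covered share was 1.01 times theirs. That closeness is an average of unlike chromosomes: without V the density ratio was 0.840, and without I it was 1.10.

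The totals hid an uneven layout. The chromosome was cut into 3 parts of equal length (5.08 Mb), here called the left arm, the middle and the right arm, and each peak was placed by its midpoint. The middle was 26.2% covered, the right arm 23.5% and the left arm 13.6%. Of the covered length of the chromosome, 41.5% lay in the middle, 37.1% in the right arm and 21.5% in the left arm. Peak numbers were ordered differently, with 186 peaks in the middle, 297 on the right and 170 on the left. The right arm therefore had the most peaks, the middle had the most DNA under peaks, and the left had the least of both. The boundaries lay at 5081126 and 10162251.

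**Figure D1:**
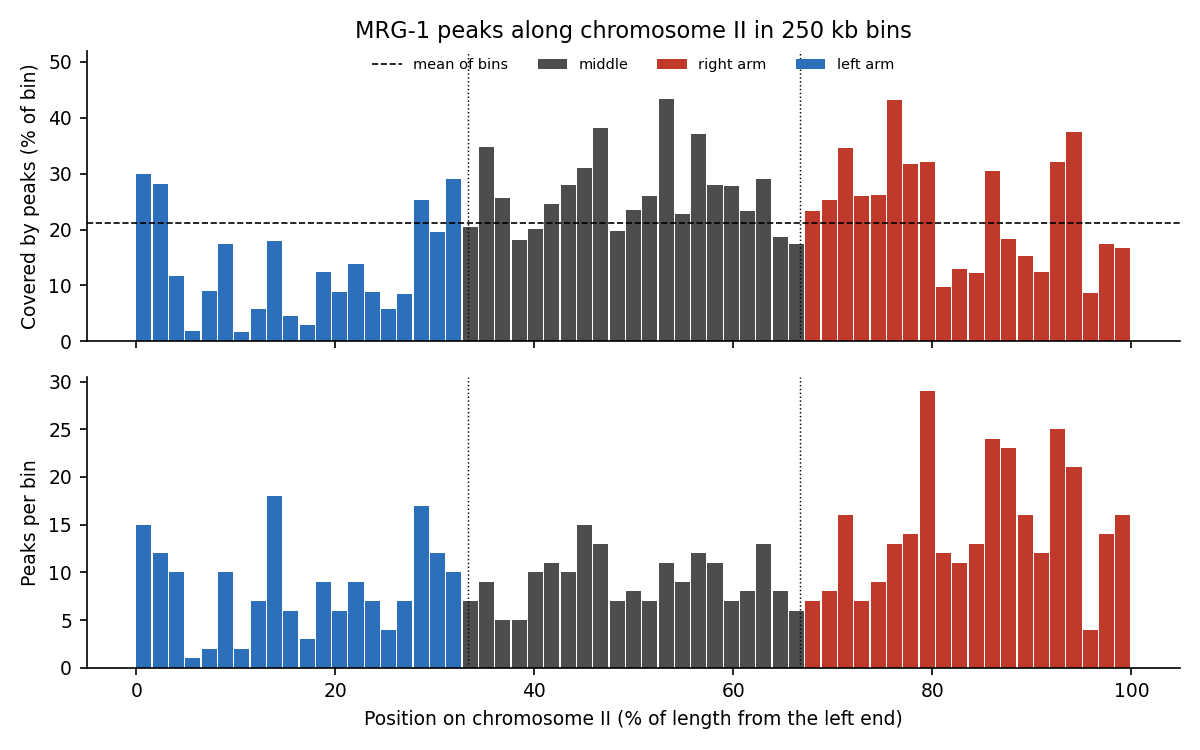
Share of each 250 kb bin covered by MRG-1 peaks (top) and number of peaks per bin (bottom) along chromosome II, as a percentage of its length from the left end, coloured by part; the dashed line is the mean of the 61 bins (21.1%) and dotted lines are the borders of the 3 parts. The 15 bins that follow the first 2 at the left all lie below the mean, while no bin of the middle falls under 17.4%.

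The arms differed in how many peaks they held. The right arm of II had 58.5 peaks per Mb and the left arm 33.5 per Mb, a ratio of 1.75 (interval 1.44 to 2.12). Covered length differed by about the same factor, at 23.5% on the right and 13.6% on the left, a ratio of 1.73. Mean widths were close, at 4013 bp on the right and 4044 bp on the left, a ratio of 0.992. The median width was 2276 bp on the right (interval 2036 to 2760) and 2599.5 bp on the left (interval 2024 to 3204), and these intervals overlap. For peaks as listed, the ratio of covered length was thus nearly that of the number.

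The surplus on the right was present in each width class. Peaks narrower than 1.5 kb numbered 94 on the right and 45 on the left, a ratio of 2.09 (interval 1.45 to 3.05). Between 1.5 and 5 kb the ratio was 1.49 (interval 1.12 to 1.99). Peaks over 5 kb but under 10 kb numbered 54 on the right and 25 on the left (ratio 2.16, interval 1.32 to 3.62). The class of 10 kb or more, with 24 on the right and 16 on the left, was the 1 class of the 4 whose interval includes 1 (ratio 1.50, interval 0.764 to 3.02). The authors' score, which has no stated scale, split the list at 576.7 into an upper and a lower part. Above it the right arm held 133 peaks and the left 80 (ratio 1.66, interval 1.25 to 2.22). At or below it the right arm held 164 and the left 90 (ratio 1.82, interval 1.40 to 2.38). High-scoring and low-scoring peaks thus leaned to the same side.

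Joining of close peaks left the asymmetry in place. When neighbours with gaps under 1 kb were merged, the 653 peaks became 485 regions, of which 208 lay on the right and 120 on the left (ratio 1.73, interval 1.38 to 2.19). With gaps under 5 kb merged there were 327 regions, 123 on the right and 82 on the left (ratio 1.50, interval 1.13 to 2.01).

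Against the other autosomes, II had the highest ratio of right to left for both number and covered length. Chromosome III leaned the same way, with ratios of 1.28 for the number (interval 1.08 to 1.51) and 1.47 for covered length. On I the number ratio was 0.692 (interval 0.592 to 0.808) and on IV 0.642 (interval 0.529 to 0.777), so their left arms were the denser ones. On V it was 0.837, with an interval of 0.681 to 1.03 that includes 1. The interval on II overlaps that on III (1.44 to 2.12 and 1.08 to 1.51) and lies above those on I, IV and V. Since I and IV lean to the left, this separation reflects direction and does not show that II is the more uneven. No test over chromosomes was made. The right to left ratio of mean widths was 0.992 on II and 1.07 (V) to 1.19 (IV) on the others. Settings for widths were added after seeing the data, and II was not the lowest in all of them. With gaps under 1 kb merged the ratio was 0.999 on II and 0.962 (V) to 1.32 (IV) on the others. With gaps under 5 kb merged it was 1.18 on II and 0.916 (I) to 1.26 (III) on the others. Among the higher-scoring 50% of the list II was still the lowest, at 1.03 against 1.07 (V) to 1.14 (I). The position that splits the covered length into equal parts lay at 55.9% of the length of II, against 47.1% (I) to 54.4% (III) on the others. For the number of peaks it lay at 60.9% on II, against 40.3% (I) to 57.0% (III).

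**Figure D2:**
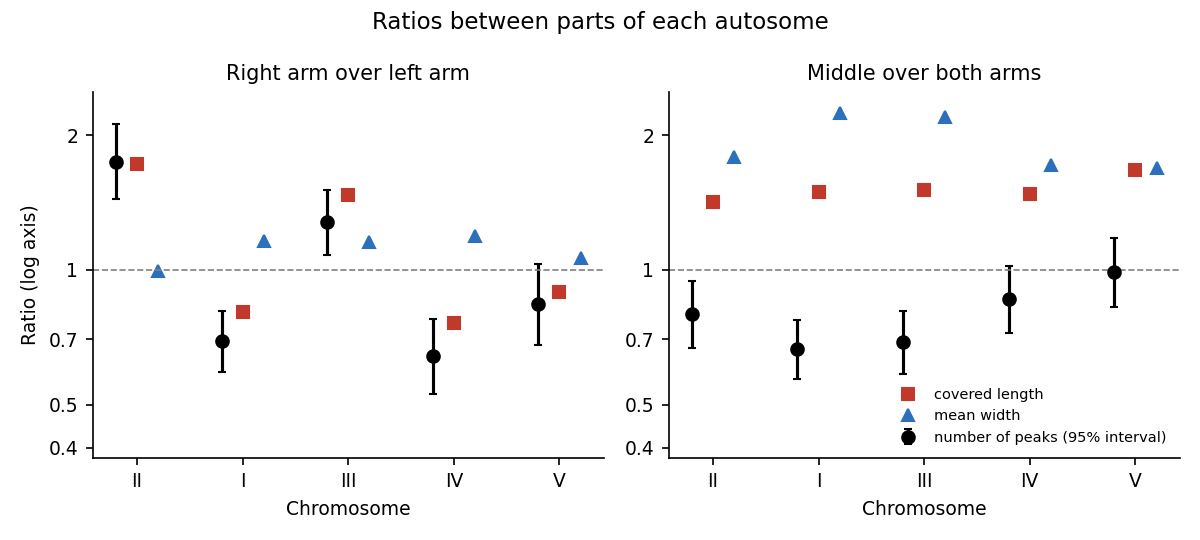
Ratios of the right to the left arm (left panel) and of the middle to both arms (right panel) for chromosome II and the other autosomes, on log axes; circles are peak numbers with 95% exact intervals, squares covered length and triangles mean width, and the dashed line marks equal values. For II the right to left ratios of number (1.75) and covered length (1.73) nearly coincide while the mean width is at 0.992; in the right panel covered length lies above 1 on all 5 autosomes.

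In bins of 250 kb, the spread along each arm was wide. Bins of the right arm averaged 23.3% ± 10.1 covered (SD over 20 bins) and ran from 8.65 to 43.2%. Bins of the left arm averaged 13.2% ± 9.22 (SD over 20 bins) and ran from 1.63 to 30.0%. The arms overlapped, but 7 of the 20 right bins were covered more than any left bin, and 7 of the 20 left bins less than any right bin. Bins under 10% covered numbered 2 on the right and 10 on the left. In peak numbers, right bins held 14.7 ± 6.71 and left bins 8.35 ± 4.85 (SD over 20 bins each).

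The bins of the middle were more even, at 26.5% ± 7.11 (SD over 21 bins) with a range of 17.4 to 43.4%. None of them was under 10% covered, and 15 of the 21 lay above the median bin of the chromosome, 20.4%. Above that median were also 11 of 20 bins on the right and 4 of 20 on the left. Over all 61 bins of II the mean was 21.1% ± 10.4 (SD over bins). Neighbouring bins resembled each other, with a correlation of 0.487 over 60 pairs of bins that share a library and a chromosome. The same correlation was 0.248 (III) to 0.407 (I) on the other autosomes.

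Laid on each other from the ends inwards, the right arm was the more covered one at 14 of 20 distances of 250 kb. It had more peaks at 15 of them and the same number at 1. In covered share, though not in number, the order was turned round in the outermost 0.5 Mb. In the outermost 250 kb the right end was 16.2% covered and the left end 30.0%, with 16 peaks on the right and 15 on the left. In the next 250 kb the values were 17.4% and 14 peaks on the right and 28.2% and 12 peaks on the left. From 0.75 to 1 Mb inwards, the right arm was 38.7% covered with 22 peaks and the left arm 1.77% covered with 1 peak. At 3.5 to 3.75 Mb it was 43.9% covered on the right and 8.88% on the left. At 4.75 to 5 Mb, next to the middle, the arms stood at 26.0% on the right and 29.0% on the left. The right arm was also the less covered one at 0.5 to 0.75 Mb (8.65% on the right, 11.8% on the left). In that step it had fewer peaks as well, 4 against 10 on the left. It was again the less covered one at 1.25 to 1.5 Mb (12.8% and 17.5%) and at 2.75 to 3 Mb (9.72% and 12.4%). The order thus changed several times along the arms. On III the right arm was the more covered at 14 of 18 distances, on V at 13 of 27, on I at 6 of 20 and on IV at 6 of 23.

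**Figure D3:**
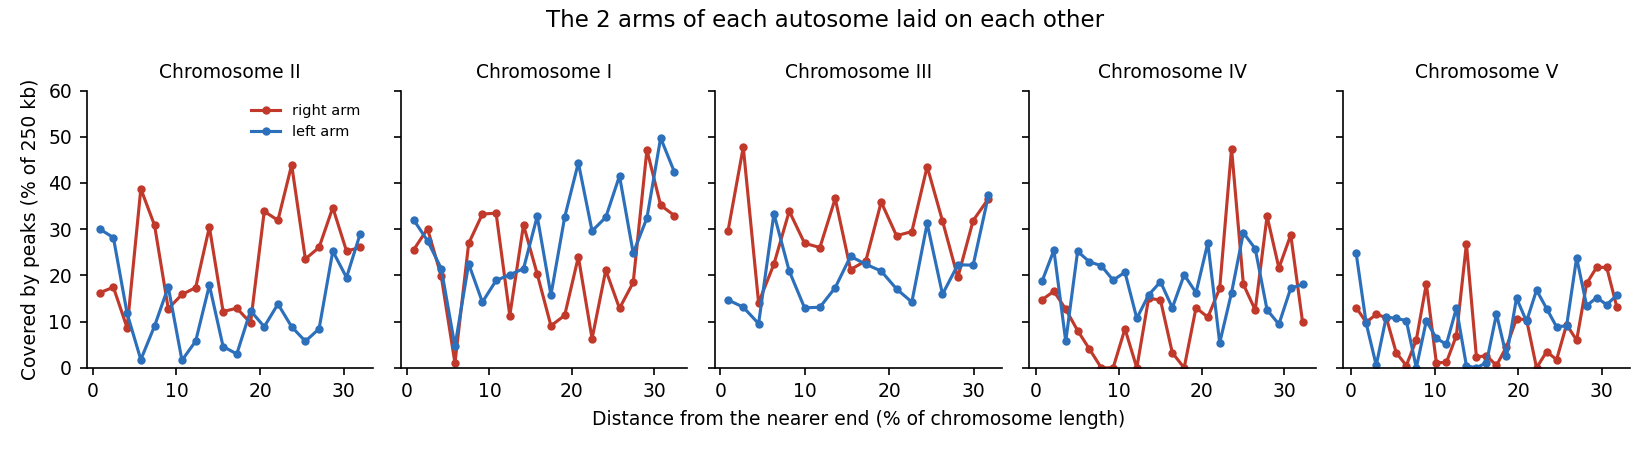
Covered share of 250 kb steps from each end inwards, for the right arm and the left arm of chromosome II and of the other autosomes; the horizontal axis is the distance from the nearer end as a percentage of chromosome length. On II the right arm is below the left at the tip (16.2% on the right, against 30.0% on the left) and above it at 14 of 20 steps.

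The low values of the left arm formed 1 long stretch. Read from the bins, 15 neighbouring bins from 500001 to 4250000 were each below the mean of the chromosome, at 1.63 to 17.9%. Together these 3.75 Mb held 101 peaks (26.9 per Mb) and were 8.74% covered, with a median width of 1878 bp. The longest such run on the other autosomes was 16 bins on IV (3.96 Mb at its right end, 8.49% covered), and those on I, III and V were 8 or 9 bins long. Because the stretch was picked for its low bins, its values are a description. The 0.5 Mb to its left, up to the chromosome start, held 27 peaks and was 29.1% covered, the level of the middle.

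The right arm was made of unlike blocks, again read from the bins. From 10250001 to 12250000 lay 8 bins of 23.4 to 43.2%, together 30.3% covered. They held 103 peaks (51.5 per Mb) with a median width of 4061 bp, and 45.6% of these peaks were over 5 kb. In number and width this block stood between the middle (36.6 per Mb, 5599.5 bp) and the whole right arm (58.5 per Mb, 2276 bp). The next 3 bins, up to 13000000, were 9.72 to 12.9% covered. Their 36 peaks gave 48 per Mb but had a median width of 1420 bp. From 13000001 to 14500000 lay the densest of these blocks, with 121 peaks or 80.7 per Mb, with a median width of 1792 bp and 24.3% covered. The last 0.743 Mb held 34 peaks and was 14.2% covered. Peaks over 5 kb held 78.9% of the covered bases in the first of these blocks and 42.9% in the densest one. In 10 parts of equal length, the outer 3 on the right held 53.8, 68.2 and 61.7 peaks per Mb from the inside outwards, and the outer 3 on the left held 34.1, 29.5 and 32.8. The median widths in the same order were 3966, 1621 and 2064 bp on the right and 2096, 1726 and 3485 bp on the left. The outermost part was thus the broad-peaked one on the left, and the innermost on the right.

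The most covered bins lay in the middle and on the right, and the least covered on the left. The highest was 8000001 to 8250000 in the middle, with 43.4% under 11 peaks, 9 of them over 5 kb. It was followed by 11500001 to 11750000 on the right (43.2%, 13 peaks), 7000001 to 7250000 (38.2%, 13 peaks), 14250001 to 14500000 on the right (37.5%, 21 peaks) and 8500001 to 8750000 (37.1%, 12 peaks). The bin at 14250001 had a median width of 2340 bp and the other 4 had medians of 5752 to 8933 bp. Its 6 peaks over 5 kb, the widest of 24085 bp, still lay over 69.1% of its covered bases, against 78.3 to 93.6% in the other 4. The 5 least covered bins were all in the left arm. They were 1500001 to 1750000 (1.63%, 2 peaks), 750001 to 1000000 (1.77%, 1 peak), 2500001 to 2750000 (3.01%, 3 peaks), 2250001 to 2500000 (4.60%, 6 peaks) and 3750001 to 4000000 (5.74%, 4 peaks). Of these 16 peaks, 1 was over 5 kb.

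The median peak on II was 3260 bp wide (interval 2912 to 3563). The narrowest had 952 bp and the widest 31590 bp, and the quartiles were 1586 and 6604 bp. The medians of the other autosomes were 2510 bp (I), 2934.5 bp (V), 2942.5 bp (III) and 3047 bp (IV). II had the highest median, but its interval overlaps those of III, IV and V and lies above that of I (2265 to 2843). Of the peaks on II, 34.8% were broader than 5 kb (interval 31.1 to 38.6%), as were 32.4% of those on the other autosomes pooled. Peaks over 5 kb held 69.8% of the covered length of II, and the 126 widest peaks, 19.3% of all on II, held 50% of it.

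The middle carried broader peaks than the arms, and fewer per Mb than both arms pooled. The lower number held against the right arm (58.5 per Mb) and not against the left arm (33.5 per Mb). It had 36.6 peaks per Mb and the arms 46.0 per Mb, a ratio of 0.797 (interval 0.668 to 0.946), while its covered share was 26.2% against 18.5% in the arms, a ratio of 1.42. The median peak was 5599.5 bp wide in the middle and 2374 bp wide in the arms. Narrow peaks were rare in the middle: 10 peaks under 1.5 kb lay there, against 139 in the arms (ratio 0.144 per unit of length, interval 0.0675 to 0.273). Peaks of 10 kb or more numbered 51 in the middle and 40 in the arms (ratio 2.55, interval 1.65 to 3.96). The lower number in the middle than in the pooled arms depended on which peaks were counted. With gaps under 1 kb merged the ratio was 0.957 (interval 0.786 to 1.16), and with gaps under 5 kb merged it was 1.19 (interval 0.943 to 1.50). Counted over the higher-scoring 50% of all peaks alone, it was 1.39 (interval 1.12 to 1.72). On the other autosomes, too, the median peak was wider in the middle than in the arms, by 2107 bp (V) to 4362 bp (I). Peaks under 1.5 kb made up 3.92% (III) to 8.12% (IV) of peaks in their middles and 24.0 to 37.7% in single arms. The other autosomes also had the same pattern in covered length, with ratios of middle to arms from 1.48 (IV) to 1.67 (V). The ratio on II, 1.42, was the lowest of the 5. The more covered arm of II, the right, reached 89.4% of the covered share of its middle. On the other autosomes the more covered arm reached 63.3% (V), 74.4% (I), 76.8% (IV) and 78.8% (III) of that of the middle.

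**Figure D4:**
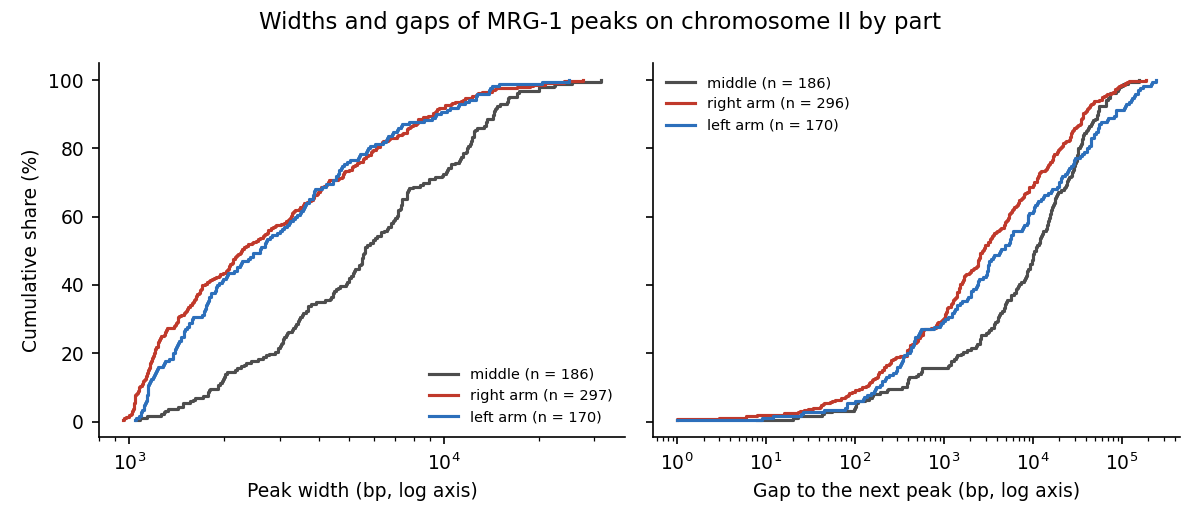
Cumulative share of peak widths (left) and of gaps to the next peak (right) in the middle, right arm and left arm of chromosome II, on log axes in bp. The width curves of the right and left arms (medians 2276 and 2599.5 bp) run together and the middle (median 5599.5 bp) is shifted to wider peaks. The gap curves of the right and left arms are close up to 1 kb (30.1% and 29.4% of gaps). They are apart at the median (2710.5 and 4326 bp), though the intervals of these medians overlap.

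Gaps showed the arm difference from the other side, mainly in the long ones. The median of the 652 gaps on II was 5020.5 bp (interval 3917 to 6437), with quartiles of 928 and 22270.5 bp. By part it was 10633.5 bp in the middle (interval 8586 to 14561), 2710.5 bp on the right (interval 2015 to 4172) and 4326 bp on the left (interval 2777 to 8535). The intervals of the right and left arms overlap. Gaps under 1 kb had nearly the same share in both arms, 30.1% on the right and 29.4% on the left, and made up 15.6% in the middle. Long gaps were unevenly spread. Gaps over 100 kb numbered 4 on the right and 15 on the left, with 3 in the middle. Gaps over 50 kb added up to 1.60 Mb on the right, or 31.5% of that arm, and to 3.11 Mb on the left, or 61.2%. In the middle they added up to 1.67 Mb, or 32.9%. The arms thus had similar shares of short gaps, while the left arm had the larger share of its length in long ones. On the other autosomes the median gap was likewise longer in the middle than in the arms, by 4770.5 bp (I) to 14920 bp (V).

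Of the 5 longest gaps on II, 4 lay in the left arm. The longest spanned 878215 to 1120825 (242611 bp), and the next were 3120642 to 3340559 (219918 bp) and 2252251 to 2464935 (212685 bp). The fourth was on the right, from 14564221 to 14750414 (186194 bp), and the fifth again on the left, from 4050097 to 4222834 (172738 bp). The peaks that border these gaps were not of one kind. Those beside the third gap were 1814 and 1186 bp wide with scores of 99.62 and 66.65, and those beside the fourth were 7644 and 9192 bp wide with scores of 3100 and 2800.45. Gaps over 100 kb numbered 22 on II, 11 on I, 11 on III, 22 on IV and 49 on V. The longest gap of II was shorter than the longest on I (268505 bp), V (399782 bp) and IV (753422 bp), and longer than that on III (147887 bp).

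Close spacing was less frequent on II than on most autosomes. Gaps under 1 kb were 25.8% of the gaps on II (interval 22.4 to 29.3%), against 32.6% on the other autosomes pooled, and the share on V was 25.3%. The shortest gap on II was 1 bp, so the list keeps peaks apart even when 1 bp lies between them. Peaks with a neighbour within 1 kb were 43.6% of all on II, against 40.9% (V) to 59.6% (I) on the others. The merged regions were mostly single peaks, 368 of 485, with 85 pairs, 32 regions of 3 or more peaks and 5 of 5 or more. The share of single peaks was 83.4% in the middle, 71.6% on the right and 73.3% on the left. Peaks with a close neighbour were narrower. Those with a neighbour within 1 kb had a median width of 2523 bp, those with the nearest peak at 1 to 5 kb 3204 bp, at 5 to 20 kb 4853 bp, and at 20 kb or more 4589 bp. These classes pool the parts, and the relation within each part was not examined. On the other autosomes the medians were 1968 bp (V) to 2574 bp (III) within 1 kb. They were 2153 bp (I) to 2481 bp (IV) at 1 to 5 kb, and 4662 bp (V) to 5852 bp (IV) at 5 to 20 kb. The widths of adjacent peaks on II were weakly alike (Spearman rho 0.342 over 652 neighbouring pairs, which share the library and often the part).

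Single wide regions were found in all 3 parts. The widest peak of II spanned 7852130 to 7883719 in the middle, 31590 bp with a score of 514.88. The second, 11094357 to 11121984 on the right, was 27628 bp wide with a score of 192.13, and the third, 6584043 to 6609541 in the middle, was 25499 bp wide with a score of 404.80. The fourth lay in the left arm at 4935389 to 4960279 (24891 bp, score 1506.90), close to the border of the middle. The fifth was at 14344875 to 14368959 on the right (24085 bp, score 776.44), 83 bp from its left neighbour. After merging of gaps under 1 kb, the longest region was 10236233 to 10268115 on the right, 31883 bp long and made of 2 peaks that filled 99.8% of it. The second was the widest peak itself, and the third was 14383471 to 14413790 on the right, 30320 bp long, with 3 peaks that filled 97.2%.

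The authors' scores followed width. Across the 653 peaks of II the Spearman correlation of score and width was 0.834, a description across peaks of 1 library. It was 0.559 in the middle, 0.888 on the right and 0.861 on the left. The 5 widest peaks scored 192.13 to 1506.90, although 161 peaks of II (24.7%) had a score of 3100 or more. Such scores were given to 43.5% of the peaks in the middle, 16.5% on the right and 18.2% on the left. Many scores in the list were exactly 3100, and the effect of such ties on the correlations was not tested. The median score was 2657.86 in the middle, 387.84 on the right and 513.13 on the left. The higher number of peaks on the right thus did not go with a higher median score there. The contrast of middle and arms in score was not particular to II. On the other autosomes median scores were 1700.71 (I) to 2534.43 (V) in the middle and 257.69 to 557.65 in single arms. Scores of 3100 or more made up 26.0% (I) to 41.1% (V) in the middle and 11.9 to 22.9% in single arms. Score and width correlated there at 0.340 (III) to 0.662 (V) in the middle and 0.869 to 0.907 in single arms.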

How the data were processed

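MRG-1 was profiled by ChIP-seq in 1 ChIP library, beside 1 input library whose reads were not analysed here. Ground frozen worms were fixed in 1% formaldehyde for 10 minutes and sonicated, per the labels' protocols. BWA and ce10 are named per the submitters' processing notes, and WS220 coordinates and MACS peaks per the file headers. Not given in the sources used here: versions, caller settings and whether the input was used. The score per peak, deposited by the authors with no stated scale, selected no peak and served for description and 1 alternative. Starts and ends were used as deposited.

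Widths are end minus start plus 1. Covered length was counted base by base, in bins of 250 kb (end bins under 125 kb left out). Shares have exact Clopper-Pearson intervals, number ratios the same intervals scaled by length, and medians order-statistic intervals. With 1 library no test was made. Alternatives were other borders, merging, leaving out the widest 5% or chromosome ends, the upper 50% by score, other bins and leaving out other autosomes. The calculations were tested on simulated data and run in Python 3.11.15, NumPy 2.4.6 and SciPy 1.17.1, with plots from Matplotlib 3.10.9. Regions named by position are the 5 widest peaks, 5 longest gaps, 5 most and 5 least covered bins and 3 longest merged regions of II. Blocks read from the bins were chosen after their values were seen. The members and lists were chosen with earlier results of these data known. Peaks were not assigned to genes and no sequence is shown, because the annotation at hand (WBcel235) is of another build.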

Additional observations from a re-analysis of the deposited data

How the results depend on the processing

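Length is a lower bound, depth and caller settings are unknown, and binding below the calling threshold cannot be seen, so an empty stretch shows only that no peak was listed there. The right to left ratio on II stayed above 1 in each alternative run, from 1.61 (without the widest 5%) to 1.96 (the outer 25% at each side) for covered share. For the number of peaks it was 1.50 (gaps under 5 kb merged) to 2.14, reached with the outer 25% at each side, which lies above the counting interval of the main value. Without the first and last 1 Mb, a setting chosen after seeing the data, the ratios were 1.93 for covered share and 1.83 for number. The ratio of peak number in the middle to the pooled arms moved to 0.957 with gaps under 1 kb merged. It turned round with gaps under 5 kb merged (1.19) and in the upper 50% by score (1.39). By construction, merging joins neighbours in every part. Gaps under 1 kb made up 29.8% of the gaps in the arms and 15.6% in the middle. The cause of these changes was not tested, for merging or for the score. The right minus left difference of median width was -323.5 bp. It changed sign to 1436 bp with gaps under 5 kb merged and to 660.5 bp in the upper 50% by score. The second value lay within the range given by the intervals of both medians. The middle minus outer difference, 3226 bp, became 1779 bp with gaps under 5 kb merged and 1407 bp in the upper 50% by score. Against the other autosomes, the density ratio of 0.980 became 1.08 with gaps under 1 kb merged and 1.07 with gaps under 5 kb merged. Leaving out 1 other autosome, also chosen after seeing the data, moved it to 1.10 (without I), 1.07 (III) and 0.840 (V), and the covered ratio of 1.01 to 1.14 (I), 1.12 (III) and 0.839 (V). The remaining 42 of 57 values stayed within the range set for the main value, the bin median among them. For number ratios and the bin median that range was the counting interval. For covered ratios it was the interval of the number ratio on the same relative scale, which is not their own error. For differences of medians it was built from the intervals of both medians. No paired analysis was possible because there was 1 ChIP and 1 input library, and none could be left out.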
